A study of Mus musculus with 24 samples.

Results

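The 76 genes described here encode the proteins of the cytosolic ribosome. They are 43 genes of the large subunit, 30 of the small subunit (Rpsa among them) and 3 of the stalk (Rplp0, Rplp1 and Rplp2). They were chosen by name from the 56605 gene probes of the array, as every gene called Rpl or Rps followed by a number with or without a closing a or x, together with Rplp0, Rplp1, Rplp2 and Rpsa. All 76 genes with such a name passed the condition that a probe be well above background on the 3 arrays of at least 1 group, and so did 167 of their 170 probes, among 36409 probes that passed on the whole array. Each gene was represented by its passing probe of highest mean level over the 24 arrays, so that probes were not ranked by differences between groups. The condition can still admit a dim probe through 1 group where it is high. Rpl37 was the only member not above background on all 24 arrays.

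Total RNA came from the nerve roots of lumbar segments L4–L6 of C57BL/6 mice, an inbred laboratory strain, with no treatment or genetic change named for any group. Efferent fibres (EN, ventral root) and afferent fibres (AN, dorsal root) were each taken at P0 (the day of birth) and at 1, 3 and 5 weeks (1W, 3W and 5W), which gives the 8 groups P0 EN, 1W EN, 3W EN, 5W EN, P0 AN, 1W AN, 3W AN and 5W AN, with 3 arrays each. By the study's text, mice of both sexes were used, the fibres of a group were pooled, and the 3 arrays of a group stand for independent experiments. No source ties an array to particular animals, so p-values measure the spread between these arrays, which may be technical.

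Ribosomes are built from ribosomal RNA and the proteins of these genes. The small subunit reads the mRNA, the large subunit joins the amino acids, and the stalk of the large subunit calls in the elongation factors. In mammals the mRNAs of ribosomal proteins begin with a C followed by a run of C and T letters, the terminal oligopyrimidine (TOP) tract, by which mTOR and Larp1 set how strongly they are translated. The nerve roots hold axons together with Schwann cells, which divide around birth and then stop dividing and form myelin.

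RefSeq's promoter table for build GRCm38.p6 held a start site for 56 of the 76 genes, and the first listed start of each was used. In 12 of the 56 genes (21.4%) the annotated first base was a C that began a run of at least 5 C or T letters, against 2.49% of the 27025 genes of that table. A run of at least 8 such letters that began with C no more than 10 bases from the start was found in 20 of the 56 (35.7%), against 8.03% of all genes. Only the strand of the gene was searched, and a match is a description of the letters. The starts of 8 genes are shown because they bear on the results that follow. Rps6, Rps15a, Rps18, Rpl35 and Rpl38 have long tracts, Rps21 has a tract although its level did not follow that of the others, and Rps2 and Rps7 had the largest falls with age on steady replicates. Each window is read 5′ to 3′ on the strand of the gene, its 16th base is the annotated start, and capitals mark the longest run that begins with C and goes on with C or T, beginning at most 10 bases from the start. The windows lie at chr4:86857353-86857382 (minus strand, Rps6), chr7:118116133-118116162 (minus, Rps15a), chr17:33955651-33955680 (minus, Rps18), chr2:39005117-39005146 (minus, Rpl35), chr11:114668565-114668594 (plus, Rpl38), chr2:180257364-180257393 (plus, Rps21), chr17:24720048-24720077 (plus, Rps2) and chr12:28635939-28635968 (minus, Rps7).
Rps6: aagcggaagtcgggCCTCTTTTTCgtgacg
Rps15a: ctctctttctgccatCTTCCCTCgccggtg
Rps18: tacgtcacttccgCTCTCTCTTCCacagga
Rpl35: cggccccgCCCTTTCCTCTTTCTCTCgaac
Rpl38: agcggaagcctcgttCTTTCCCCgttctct
Rps21: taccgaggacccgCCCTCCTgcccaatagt
Rps2: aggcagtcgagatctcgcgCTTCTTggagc
Rps7: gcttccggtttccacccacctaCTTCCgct

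The values are on the log2 scale of the authors' quantile normalized table, in which every array has a median of 6.31 over its probes. On each array the scanner found 55.1% to 71.7% of the gene spots well above background, with a median signal of 45.4 to 191, and no gene spot was saturated. The number of arrays limits the precision of every value. The arrays lay on 4 slides, with all 3W arrays and replicate 3 of 5W on slide 4, P0 and 1W replicate 1 on slide 1, 1W replicate 2 and 5W replicate 1 on slide 2, and the rest of P0, 1W and 5W on slide 3. The labels name nerve fibres, and each of the 10 Schwann cell markers tested (Sox10 and Mbp among them) was above background on at least 1 array of every group. Of 7 oligodendrocyte markers (Mog, Mag, Mobp, Opalin, Ermn, Olig1 and Olig2), between 5 and 7 were above background on at least 1 array of each group. Opalin was above background on no array of P0 or 1W in either fibre or of 5W EN. The log2 of the summed level of the 7 ran from 15.54 to 16.95 over the 24 arrays, and a sum can rest on few markers. The part of such cells in the results was not tested.

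The ribosomal protein genes were among the brightest genes of the nerve roots in all groups. By their median rank over the 24 arrays, 60 of the 76 lay among the 500 brightest probes and 73 among the 1000 brightest, and 75 were above background on all 24 arrays. Rpl41, Rps18 and Rpl10 had the highest mean levels, at 17.72, 17.63 and 17.56. Since different probes bind with different strength, the order of levels between genes is a property of the probes as much as of the genes. Rpl22 (14.76) and Rps7 (15.07) had the lowest means but for Rpl37, whose probe read only 5.93 and was not above background on every array. The probes of Rps27 and Rps29 are placed by the array's annotation (mm9) on chromosomes 9 and 2 and not with their genes, and signal from processed copies of ribosomal protein genes elsewhere in the genome was not tested for any member.

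The median level of the 76 genes fell from birth to 5 weeks in both kinds of fibre. From the youngest to the oldest age, the EN groups had means of 16.75 ± 0.04, 16.57 ± 0.05, 16.44 ± 0.04 and 16.36 ± 0.16 (SD, n = 3 arrays). The AN groups had 16.74 ± 0.05, 16.62 ± 0.03, 16.52 ± 0.10 and 16.35 ± 0.11 in the same order. Single arrays at 5W gave 16.28, 16.25 and 16.55 for EN, with 16.30, 16.27 and 16.48 for AN, and all 6 lay below all 6 arrays at P0, which ran from 16.68 to 16.79. In both fibres replicate 3 of 5W, on slide 4, was the highest of its group. As a share of the scanner signal of all gene probes, a scale that quantile normalization does not touch, the 76 probes held 6.03% ± 0.145 at P0 EN and 4.18% ± 0.357 at 5W EN (SD, n = 3), and 5.68% ± 0.335 at P0 AN and 4.03% ± 0.446 at 5W AN. In bulk tissue, fewer cells of a type and less of an mRNA in each cell cannot be told apart.

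**Figure D1:**
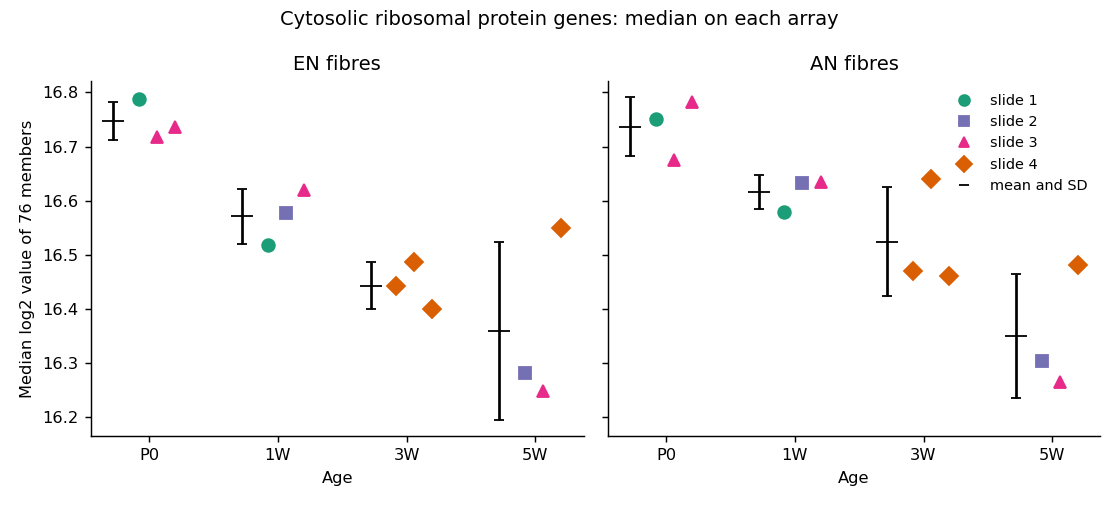
Median log2 value of the 76 ribosomal protein genes on each of the 24 arrays, with age on the x axis, EN on the left and AN on the right, symbols by slide, and bars for the mean and SD of the 3 arrays of a group. The medians step down from 16.75 (EN) and 16.74 (AN) at P0 to 16.36 and 16.35 at 5W, and the slide 4 array at 5W is the highest of its group in both panels.

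At 5W against P0 in EN, 59 of the 76 genes were lower and 0 higher (limma, Benjamini-Hochberg adjusted p below 0.05), while 26.0% of all tested probes were lower. The median difference of the 76 was -0.49 on the log2 scale, which leaves 71.1% of the level at birth, and that of all tested probes was 0.04. In AN, 57 of the 76 were lower and 0 higher, against 24.2% of all tested probes, with a median of -0.44 (73.7% of the level at birth) against 0.03. Most falls were shallow. With the study's thresholds, a p below 0.05 (taken here as unadjusted) and a fold above 2, 2 genes were lower in EN (Rplp1 and Rps7, against 15.0% of all tested probes) and 2 in AN (Rps2 and Rps7, against 13.3%). All 3 arrays at 5W lay below all 3 at P0 for 61 genes in EN, where 28.6% of tested probes did so, and for 56 genes in AN, where 25.9% did. The same 53 genes were lower in both fibres. Those called in EN alone were Rpl19, Rpl35a, Rpl9, Rplp1, Rps27 and Rps9, those called in AN alone were Rpl10, Rpl11, Rpl21 and Rpl5, and no interaction term separated the fibres for any of them. Among those called in neither were Rpl26, Rpl28, Rpl3, Rpl30, Rpl37, Rpl37a, Rpl38, Rpl7, Rps15, Rps16, Rps21 and Rps29.

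In EN, 31 of the 43 large subunit genes were lower (median -0.37), 25 of the 30 small subunit genes (-0.51) and 3 of the 3 stalk genes (-0.61). In AN those lower were 32 large subunit genes (-0.42), 23 small subunit genes (-0.49) and 2 stalk genes (-0.48). The difference between subunits was not tested. Slide 3 holds both ages, with 5W replicate 2 and P0 replicates 2 and 3 of each fibre. There the median difference of the 76 genes was -0.54 and -0.56 in EN and -0.49 and -0.53 in AN, with at least 74 of the 76 lower in each pair. Both pairs of a fibre share the single 5W array, which had the lowest median of its group (16.25 in EN and 16.27 in AN). The share of all tested probes lower in these pairs is not given here.

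**Figure D2:**
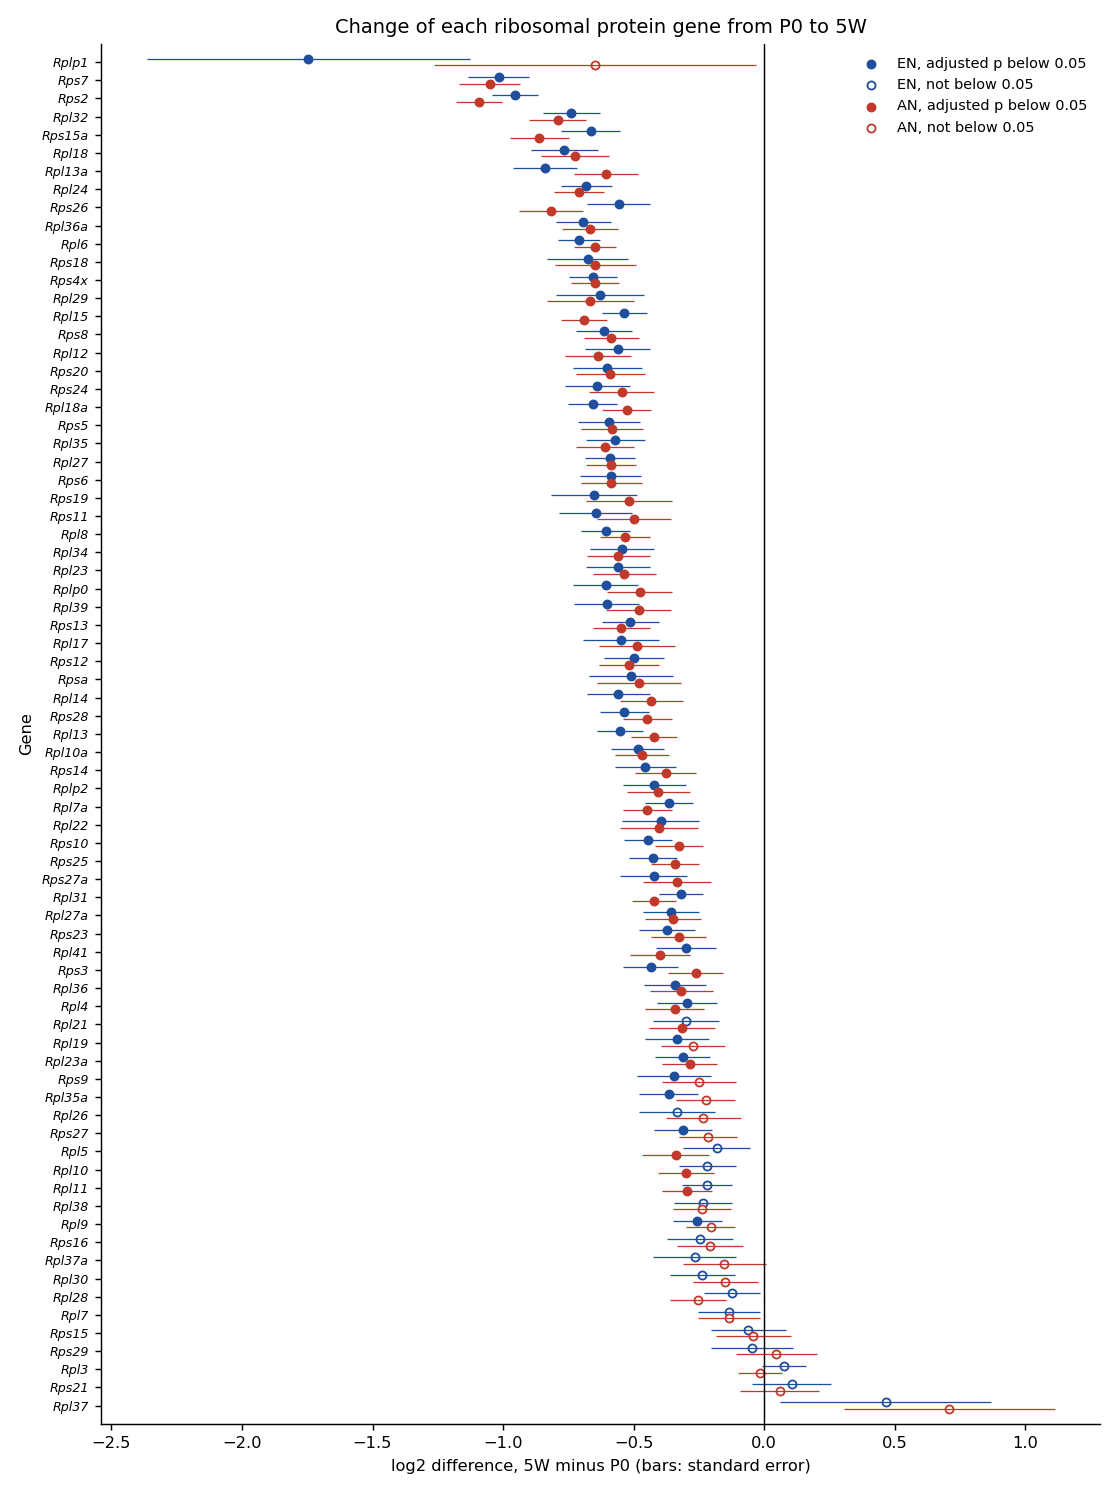
log2 difference between 5W and P0 for 75 of the 76 genes (x axis, with standard error bars), in EN (blue) and AN (red), where filled points have an adjusted p below 0.05. The 59 filled points in EN and the 57 in AN all lie left of 0, and the open points near 0 belong to genes such as Rps15, Rps29, Rpl3 and Rps21.

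Among the small subunit proteins, Rps2, which lies near the mRNA entry channel, fell in both fibres. In EN its arrays read 16.04, 15.97 and 16.10 for P0, then 15.63, 15.74 and 15.77 for 1W, then 15.08, 15.14 and 15.15 for 3W, and last 15.05, 15.05 and 15.15 for 5W. In AN they read 16.12, 16.08 and 16.18, then 15.69, 15.71 and 15.89, then 15.18, 15.36 and 15.22, and last 15.02, 15.04 and 15.04 over the same ages. The arrays of P0, 1W and 3W did not overlap in either fibre, and the step from 3W to 5W was small. The difference between 5W and P0 was -0.96 (SE 0.09, limma adjusted p = 4.81e-08) in EN and -1.09 (SE 0.09, limma adjusted p = 7.92e-09) in AN, which left 51.6% and 46.9% of the level at birth. Of the 2 other Rps2 probes, a bright one gave -0.92 (adjusted p = 4.4e-05) in EN and -0.93 (adjusted p = 4.01e-05) in AN, and a dim one (mean level 4.14) was not called, so that the mean of the 3 probes gave -0.28 and -0.25 with limma adjusted p of 0.475 and 0.529.

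Rps7, a small subunit protein needed to process the precursor of the ribosomal RNA of that subunit, fell in both fibres too. It read 15.68, 15.65 and 15.77 at P0 EN and 14.49, 14.83 and 14.73 at 5W EN, a difference of -1.02 (SE 0.12, limma adjusted p = 8.47e-07). In AN it went from 15.61, 15.63 and 15.77 to 14.45, 14.80 and 14.62, a difference of -1.05 (SE 0.12, limma adjusted p = 5.68e-07). The groups did not overlap. At 3W Rps7 already read 14.68, 14.69 and 14.69 in EN, with 14.61, 14.85 and 14.53 in AN.

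Rps15a, another core protein of the small subunit, read 16.30, 16.43 and 16.48 at P0 EN against 15.59, 15.87 and 15.75 at 5W EN, a difference of -0.66 (SE 0.11, limma adjusted p = 7.14e-05). In AN it read 16.31, 16.29 and 16.42 at P0 against 15.41, 15.60 and 15.42 at 5W, a difference of -0.86 (SE 0.11, limma adjusted p = 3.99e-06). Its 3 other probes were all lower in both fibres, by -0.62 to -1.63 in EN and by -0.77 to -1.21 in AN. Rps6, the ribosomal substrate of the S6 kinases, differed by -0.59 (SE 0.12) in each fibre, with limma adjusted p of 0.000323 in EN and 0.000359 in AN. Its arrays at P0 ran from 16.38 to 16.66 over both fibres and those at 5W from 15.80 to 16.08, without overlap. Rps4x, the X-linked form of its protein, differed by -0.65 (SE 0.09) in each fibre (limma adjusted p = 8.7e-06 in EN and 1.02e-05 in AN), and averaging it with its other probes ended the call in AN (-0.08, adjusted p = 0.777).

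**Figure D3:**
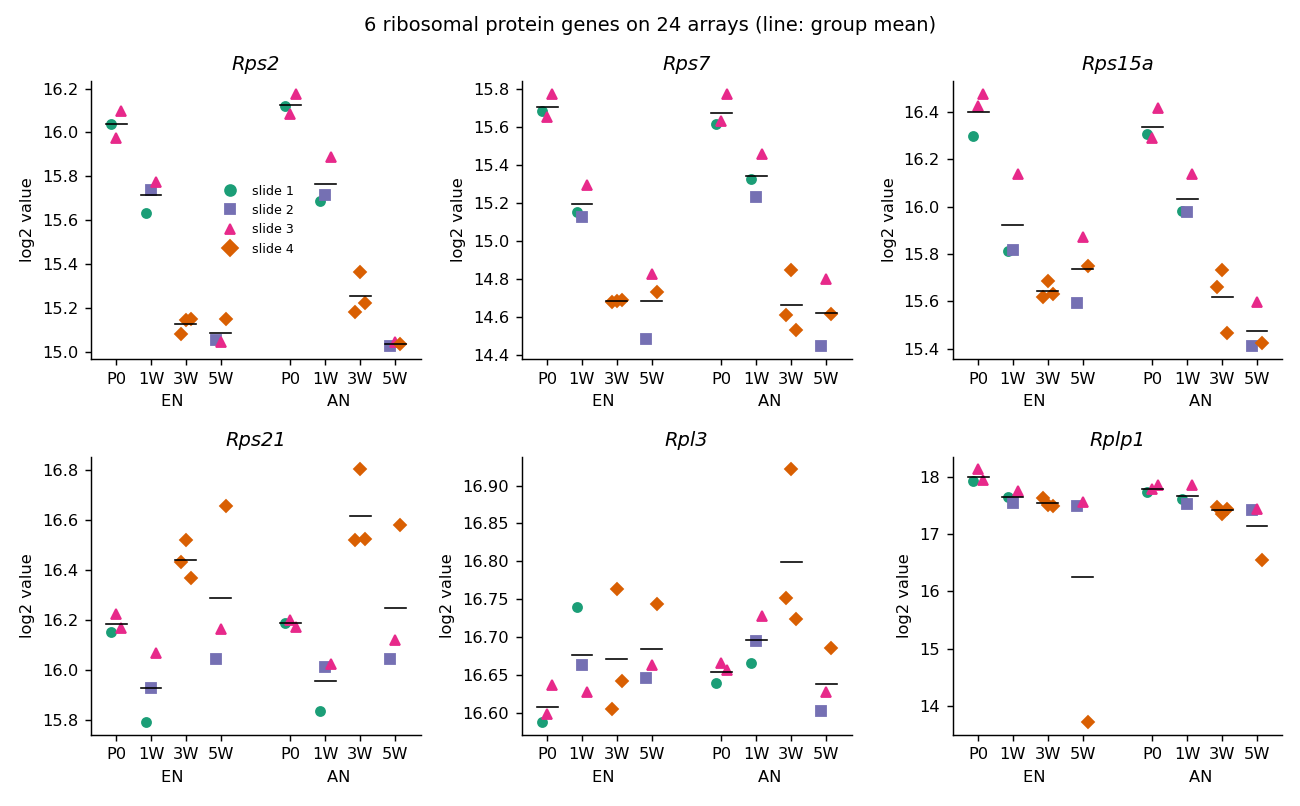
log2 values of 6 ribosomal protein genes (Rps2, Rps7, Rps15a, Rps21, Rpl3 and Rplp1) on the 24 arrays by fibre and age, symbols by slide, with a line at each group mean and a separate y axis for each gene. Rps2, Rps7 and Rps15a step down from P0, Rps21 is highest on the slide 4 arrays, Rpl3 lies between 16.59 and 16.92, and Rplp1 has an array at 13.71 in 5W EN.

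Small subunit genes known from disease or from roles beyond the ribosome fell as well. Rps3, which also takes part in DNA repair, differed by -0.43 (limma adjusted p = 0.0018) in EN and -0.26 (limma adjusted p = 0.0447) in AN. Rps14, whose loss is known to cause anaemia in the 5q- syndrome, differed by -0.46 (limma adjusted p = 0.00306) in EN and -0.38 (limma adjusted p = 0.012) in AN. Rps19, the gene most often mutated in Diamond-Blackfan anaemia, read 17.03, 17.08 and 17.09 at P0 EN and 16.18, 16.25 and 16.81 at 5W EN, a difference of -0.65 (SE 0.16, limma adjusted p = 0.0025), with the slide 4 array the highest at 5W. In AN Rps19 differed by -0.52 (limma adjusted p = 0.013). Rps27a, made as a fusion with ubiquitin, differed by -0.42 (limma adjusted p = 0.00993) and -0.33 (limma adjusted p = 0.0384), and Rpsa, also known as a laminin receptor, by -0.51 (limma adjusted p = 0.0118) and -0.48 (limma adjusted p = 0.018). The AN calls of Rps14, Rps19, Rps27a, Rpsa and Rps3 were lost without 5W AN replicate 2, with limma adjusted p of 0.0618, 0.066, 0.206, 0.126 and 0.133. Rps27a in AN was lost also without P0 AN replicate 1 or 2 or 5W AN replicate 1, Rpsa in AN without P0 AN replicate 1, Rps19 in AN without 5W AN replicate 1, and both Rps27a and Rpsa in EN without 5W EN replicate 2 (limma adjusted p = 0.0542 and 0.0838), while the Rps3 call in AN was lost without any of 16 of the 24 arrays. Scaling each array to its 75th percentile ended the calls of Rpl5, Rpl10, Rpl11 and Rps3 in AN and those of Rpl22, Rpl41, Rplp2, Rps14, Rps27a and Rpsa in both fibres (limma adjusted p of 0.0574 to 0.877).

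Rps21, a small protein at the surface of the small subunit, took another course. It read 16.15, 16.23 and 16.17 at P0 EN, 15.79, 15.93 and 16.07 at 1W EN, 16.43, 16.52 and 16.37 at 3W EN, and 16.05, 16.17 and 16.65 at 5W EN. In AN it read 16.19, 16.20 and 16.17, then 15.84, 16.01 and 16.02, then 16.52, 16.80 and 16.52, and then 16.04, 16.12 and 16.58. The 8 arrays of slide 4, all of 3W and replicate 3 of 5W, held the 8 highest values of Rps21. Between 1W and 3W it rose by 0.51 (SE 0.15, limma adjusted p = 0.0189) in EN and by 0.66 (SE 0.15, limma adjusted p = 0.00347) in AN. No slide holds arrays of both 1W and 3W, so age and slide can be told apart in this step only through the 5W arrays. With slide as a block the step was -0.04 (limma adjusted p = 0.853) in EN and 0.10 (limma adjusted p = 0.618) in AN, and scaling to the 75th percentile ended the call as well (0.54 in both, limma adjusted p = 0.06 and 0.0571). Between 5W and P0 Rps21 differed by 0.11 (limma adjusted p = 0.583) in EN and 0.06 (limma adjusted p = 0.767) in AN, and by -0.08 and -0.11 without the slide 4 arrays of 5W.

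Among the large subunit proteins, Rpl10a, Rpl34 and Rpl35 followed the median course of the 76 genes most closely, with a Pearson correlation of 0.990, 0.996 and 0.993 over the 8 group means (a description, since the genes themselves enter the median). Rpl35, which sits beside the exit of the nascent chain, read 17.67, 17.81 and 17.68 at P0 EN and 17.12, 17.00 and 17.33 at 5W EN, a difference of -0.57 (SE 0.11, limma adjusted p = 0.000302). In AN it differed by -0.61 (SE 0.11, limma adjusted p = 0.000168). Rpl39, a very small protein of the exit tunnel, differed by -0.60 (limma adjusted p = 0.000467) in EN and -0.48 (limma adjusted p = 0.00338) in AN. Its AN call was lost when only the arrays compared were fitted (limma adjusted p = 0.0882). Rpl41, the smallest ribosomal protein and the brightest probe of the set, fell less, by 0.30 in EN and 0.40 in AN (limma adjusted p = 0.0338 and 0.00688). The EN call of Rpl41 was lost without P0 EN replicate 2 or 3 or without 5W EN replicate 1 or 2 (limma adjusted p of 0.076 to 0.139), and both its calls under scaling to the 75th percentile of each array (-0.04 in EN and -0.17 in AN, limma adjusted p = 0.877 and 0.471).

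Rpl5 and Rpl11, which join the 5S ribosomal RNA and bind the p53 regulator Mdm2 when ribosome assembly is disturbed, were called in AN and not in EN. Rpl5 differed by -0.34 (limma adjusted p = 0.0343) in AN and -0.18 (limma adjusted p = 0.246) in EN, and its other probe by -0.78 (adjusted p = 1.96e-05) and -0.67 (adjusted p = 9.06e-05). Rpl11 differed by -0.29 (limma adjusted p = 0.0156) in AN and -0.22 (limma adjusted p = 0.0628) in EN. A dim second probe of Rpl11, with a mean level of 4.63 against 17.17, rose by 1.99 in AN (limma adjusted p = 0.00207), the single pair of probes of a gene that were called in opposite directions at 5W against P0. Rpl10, which is added late in assembly and needed for the subunits to join, differed by -0.30 (limma adjusted p = 0.0274) in AN and -0.22 (limma adjusted p = 0.0981) in EN. Rpl22 differed by -0.40 in each fibre (limma adjusted p = 0.0305 in EN and 0.0301 in AN). The AN calls of Rpl5, Rpl10, Rpl11 and Rpl22 were lost without 5W AN replicate 2 (limma adjusted p = 0.151, 0.101, 0.0649 and 0.165). Other arrays whose omission ended a call were P0 AN replicates 1 and 2 and 5W AN replicate 1 for Rpl5, P0 AN replicates 2 and 3 and 5W AN replicate 1 for Rpl10, P0 AN replicates 1 and 3 for Rpl22 in AN, and P0 EN replicates 1 and 2 and 5W EN replicates 1 and 2 for Rpl22 in EN.

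Rpl38, known for its part in translating Hox mRNAs, was not called (-0.23 in EN and -0.24 in AN, limma adjusted p = 0.0814 and 0.0806), although without replicate 3 of 5W it was lower in both (-0.31 and -0.35, limma adjusted p = 0.0359 and 0.0163). Rpl3 helps to shape the site of peptide bond formation and was called in no comparison of ages with P0. Its arrays ran from 16.59 to 16.64 at P0 EN and from 16.65 to 16.74 at 5W EN, and from 16.64 to 16.67 at P0 AN and 16.60 to 16.69 at 5W AN. The differences were 0.08 (SE 0.08, limma adjusted p = 0.462) and -0.02 (SE 0.08, limma adjusted p = 0.892). A dimmer probe of Rpl3 (mean level 13.68) gave -0.23 in EN and was lower in AN (-0.34, limma adjusted p = 0.03). Rpl37 read 5.41, 6.10 and 5.58 at P0 EN and 6.03, 6.01 and 6.43 at 5W EN, with the highest of all 24 values in replicate 2 of 1W AN (7.22). At this low level its 5W values did not separate from P0 by the test (0.47 and 0.71, limma adjusted p = 0.348 and 0.154).

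The stalk genes Rplp0 and Rplp2 fell in both fibres. Rplp0 read 17.34, 17.44 and 17.54 at P0 EN and 16.72, 16.98 and 16.80 at 5W EN, a difference of -0.61 (SE 0.13, limma adjusted p = 0.000469), and it differed by -0.48 (limma adjusted p = 0.0037) in AN. Rplp2 differed by -0.42 (limma adjusted p = 0.00679) in EN and -0.40 (limma adjusted p = 0.00933) in AN. When only the arrays compared were fitted, the AN call of Rplp0 and both calls of Rplp2 were lost, and scaling to the 75th percentile ended those of Rplp2 (limma adjusted p of 0.0633 to 0.171 over these). Rplp1 had the largest fitted fall of the 76, -1.75 (SE 0.62, limma adjusted p = 0.0232) in EN, and this value rested on 1 array. It read 17.94, 18.13 and 17.95 at P0 EN and 17.50, 17.57 and 13.71 at 5W EN, and without 5W EN replicate 3 the difference was -0.47 (limma adjusted p = 0.052). Without P0 EN replicate 2 its adjusted p was 0.0586. In AN the 5W arrays read 17.43, 17.45 and 16.56, the lowest again being replicate 3. The 2 other probes of Rplp1 differed by -0.05 and 0.02 in EN and were not called.

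Most further probes gave the direction of the chosen one. Of 91 further probes for 57 of the genes, 69 were lower and 0 higher in EN at 5W against P0, and 70 were lower and 1 higher in AN, with medians of -0.58 and -0.55. For 84 of the 91 in EN and 83 in AN the sign was that of the chosen probe. Not all of them are placed with their gene by the array's annotation. A further Rpl13 probe lies on chromosome 4, while the other further probes of Rpl13 lie on chromosome 8. Those of Rps27 and Rps29 lie on chromosomes 9 and 2, and signal from processed copies was not tested. The size could also differ between probes of a gene. For Rps29, 1 bright probe gave -1.53 (limma adjusted p = 0.0384) in EN and -0.05 (limma adjusted p = 0.958) in AN. The chosen probe gave -0.05 in EN, and the remaining bright probe gave -0.04 in EN and 0.00 in AN. Over the 24 arrays the chosen probe correlated with these at -0.08 and 0.92, in the same order.

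Genes with and without a TOP tract at the annotated start were among those that fell. An annotated start is not a measured one, so the lack of a run there does not show that an mRNA lacks a TOP tract. Of the 12 genes whose annotated first base began such a tract, 9 were lower in EN (median -0.49) and 8 in AN (-0.42). Of the 20 genes with a run of at least 8 letters near the start, 18 were lower in EN (-0.55) and 16 in AN (-0.50). Of the 25 genes with no run of 5 or more there, 17 were lower in EN (-0.40) and 18 in AN (-0.34). For 8 members more than 1 start is annotated, and these counts use the first listed. Among the 25, another annotated start of Rpl35a is a C that begins a run of 8 letters. Other annotated starts of Rps19 and Rpl22 have runs of 7 and 5 letters near them. Rps18, with a run of 11 letters that begins at -2 from the annotated start, differed by -0.68 (limma adjusted p = 0.0012) in EN and -0.65 (limma adjusted p = 0.00188) in AN. Rpl38 and Rps21, whose annotated first base begins a tract, were not called. Rps7 and Rps2 have short runs after the annotated start. The difference between these sets was not tested.

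**Figure D4:**
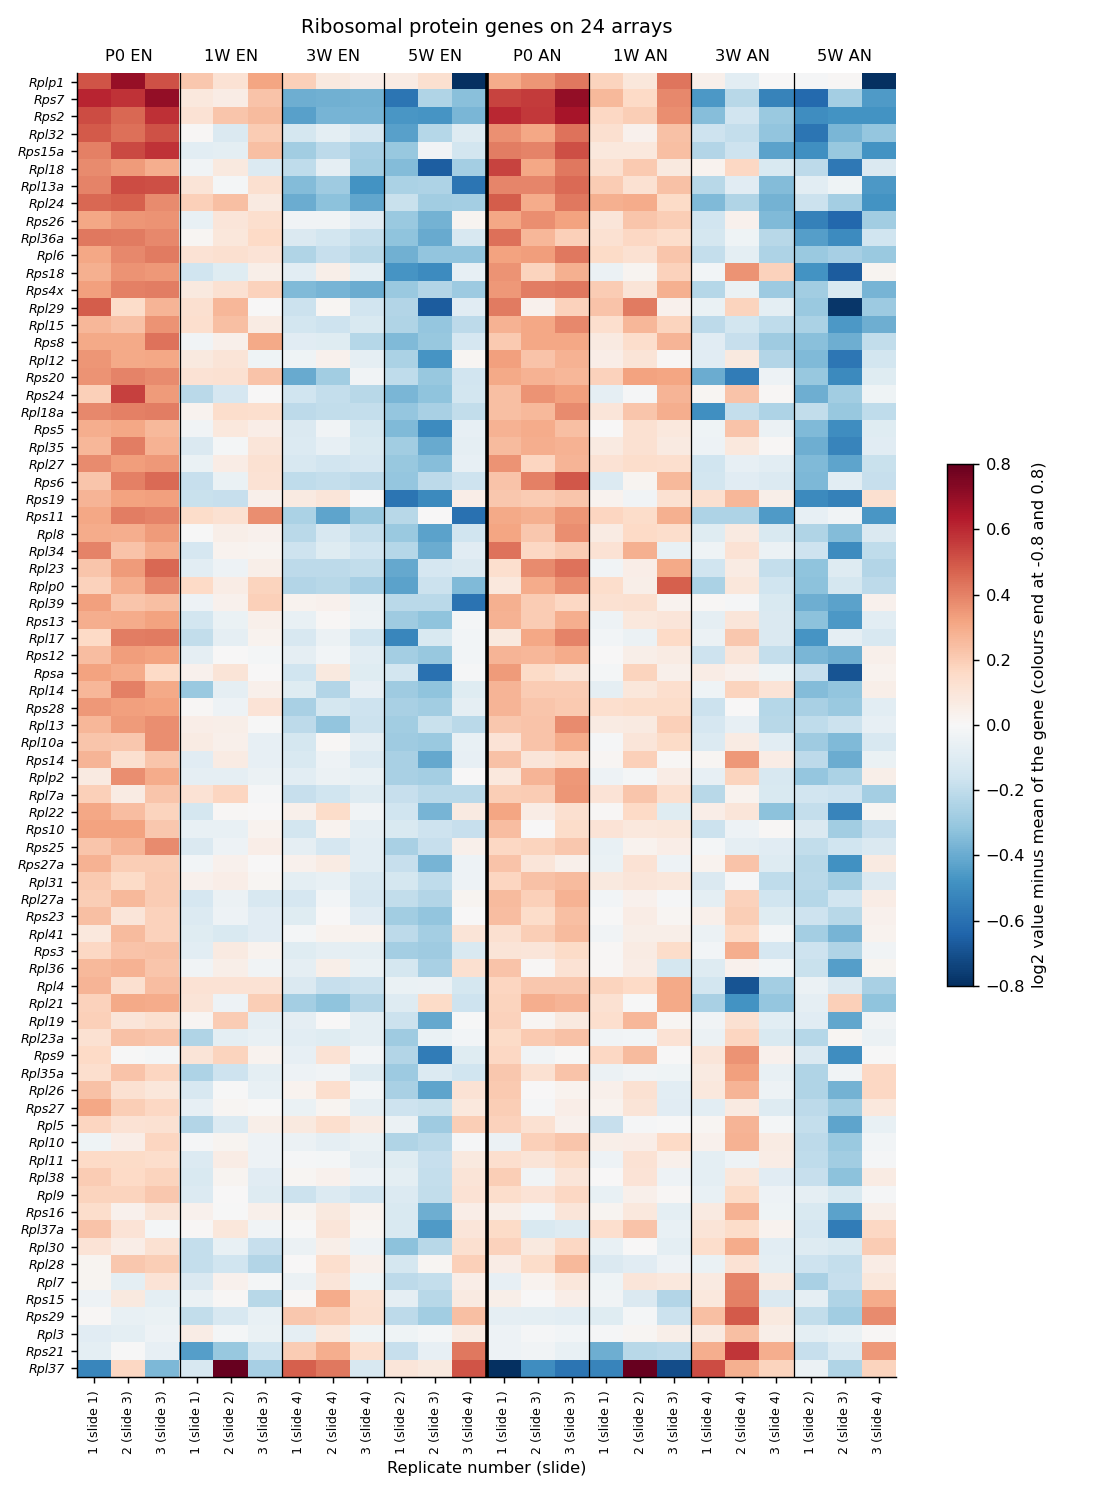
Heat map of 75 of the 76 genes (rows, ordered by their mean difference between 5W and P0) on the 24 arrays (columns, by group, replicate and slide), coloured by the log2 value minus the mean of the gene. Columns of P0 are red for most genes and those of 5W blue, replicate 3 of 5W is paler than its neighbours, and the last rows (Rps29, Rpl3, Rps21, Rpl37) lack the change.

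Part of the fall was present after the first week. In EN, 31 genes were lower at 1W than at P0, where 11.6% of all tested probes were, with a median of -0.26 against 0.06 over tested probes. Without P0 EN replicate 1, 2 or 3 the count was 20, 12 or 7, and without 1W EN replicate 1 or 2 it was 6 or 10. The share of tested probes called in those fits is not given here, so the calls at 1W cannot be set against it. In AN, 2 genes were lower (9.35% of tested probes), Rps2 by -0.36 (limma adjusted p = 0.00597) and Rps7 by -0.33 (limma adjusted p = 0.0494), with a median of -0.16 and 68 of the 76 values below 0. Neither was called under scaling to the 75th percentile (limma adjusted p = 0.0981 and 0.1) or when only the arrays compared were fitted (0.0864 and 0.118), and Rps7 was not called with slide as a block (0.0504). Leaving out single arrays left 1 to 3 calls there. Between arrays of the same slide, the 3 possible EN pairs had medians of -0.31, -0.24 and -0.24, while the AN pairs had -0.18, -0.10 and -0.15. The slide 3 pairs of a fibre among them share the same 1W array, replicate 3. The interaction term, which asks whether the AN to EN difference changed since P0, called 0 of the 76 genes at 1W (0.0632% of tested probes) by limma, with 1 at an unadjusted p below 0.05 (Rps10) and a median of 0.12 over the members. It also called 0 at 3W (0.615%) and 0 at 5W (1.14%), with 0 at an unadjusted p below 0.05 in both, and 0 under each alternative setting run.

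At 3W against P0, 46 genes were lower in EN (26.0% of tested probes) with a median of -0.34. In AN 33 genes were lower (24.9% of tested probes) and 2 were higher, Rps21 by 0.43 (limma adjusted p = 0.0256) and Rpl37 by 1.07 (limma adjusted p = 0.0332), where 26.8% of tested probes were higher, and the median was -0.24. Neither was called with slide as a block (-0.11 and 0.17, limma adjusted p = 0.56 and 0.789) or under scaling to the 75th percentile (limma adjusted p = 0.168 and 0.0611). The call of Rps21 was lost also when only the arrays compared were fitted (0.0589), and that of Rpl37 with array weights (0.0512) and with normexp (0.0855). From 1W to 3W, 13 genes were lower in EN (14.2% of tested probes) and 19 in AN (15.3%), and Rps21 alone was higher in EN (13.2%) and in AN (14.6%). Rps2, Rps7 and Rps20 were among those lower in both, by -0.59, -0.51 and -0.39 in EN and by -0.51, -0.67 and -0.61 in AN. Rps20 was named after its values were seen, and its EN call was lost under scaling to the 75th percentile (limma adjusted p = 0.171). The EN count, 14 genes with Rps21, was 9 without 1W EN replicate 1, 8 without 3W EN replicate 1 and 7 without 3W EN replicate 2, and the AN count of 20 was 12 without 1W AN replicate 3. From 3W to 5W, limma called 0 genes in EN (2.25% of tested probes) and 0 in AN (3.67%), with 4 and 23 genes at an unadjusted p below 0.05 and medians of -0.11 and -0.18. Without 5W AN replicate 3 the AN count was 12, and without 5W EN replicate 3 the EN count was 1. Those are the 5W arrays that share a slide with 3W. For the fits in this paragraph with an array left out, the share of tested probes called is not given here. Their counts describe the members alone.

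The slides bear on these steps. Replicate 3 of 5W lay above replicates 1 and 2 for 61 of the 76 genes in EN (41.3% of tested probes) and for 55 in AN (40.7%), by a median of 0.23 and 0.24 against 0.07 over tested probes in both fibres. At 3W, whose arrays are all on the same slide 4, the mean was above that at 1W for 24 genes in EN and 24 in AN, of which 23 and 24 also had replicate 3 of 5W above the other 2. On slide 4 alone, where 5W has 1 array per fibre, the 3 pairs of 5W minus 3W had medians of 0.05, 0.00 and 0.07 for EN, while those for AN were -0.02, -0.16 and 0.02. No array of 3W shares a slide with P0 or 1W. With slide as a block, which carries 3W through the 5W arrays, the median of 3W minus P0 was -0.59 in EN and -0.47 in AN, and that of 5W minus P0 was -0.58 and -0.51. With this block 63 genes were lower at 3W in EN (20.6% of tested probes) and 54 in AN (20.3%), and at 5W 68 in EN (27.7%) and 66 in AN (26.1%). The single gene then higher at 3W against P0 and against 1W was Rplp1 (by 1.93 and 2.23 in EN and 2.03 and 2.10 in AN), whose slide 4 array of 5W EN read 13.71. By 5W minus P0, where slide 3 holds both ages, the direction held within the slide, on a single 5W array per fibre. Without both slide 4 arrays of 5W, the step from 3W to 5W called 4 genes in EN (8.56% of tested probes) and 23 in AN (12.3%), of which 1 was higher and 22 were lower. In that fit no 5W array shared a slide with 3W, so age and slide cannot be told apart. With slide as a block on all arrays, the step called 1 gene in EN (5.35%) and 1 in AN (4.38%).

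In the fit without a block, no ribosomal protein gene passed the test between afferent and efferent fibres at any age. By limma, 0 of the 76 genes differed between AN and EN at P0 (0.739% of tested probes called in either direction), 0 at 1W (4.00%), 0 at 3W (5.89%) and 0 at 5W (6.76%). At an unadjusted p below 0.05 there were 0, 0, 1 and 2 genes. Other fits made a few calls. With age and replicate number as a block, 3 genes were called at 3W (21.1% of tested probes) and 2 at 5W (23.5%), array weights called 4 at 3W (20.9%), and slide as a block called 1 each at 3W (13.4%) and 5W (14.7%). The median differences, AN minus EN, were -0.04, 0.08, 0.06 and -0.01 from the youngest to the oldest age, beside 0.01, -0.06, -0.03 and -0.03 over all tested probes. For 57 of 76 genes the value was below 0 at P0, and for 71 of 76 it was above 0 at 1W. The direction at 1W and 3W depended on the scaling, since scaling each array to its 75th percentile gave medians of -0.21, -0.03, -0.16 and -0.20 at the 4 ages. The standard error of such a difference ran from 0.08 to 0.62 with a median of 0.12, so that the 95% interval of a gene of median error reached 0.25 to either side.

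**Figure D5:**
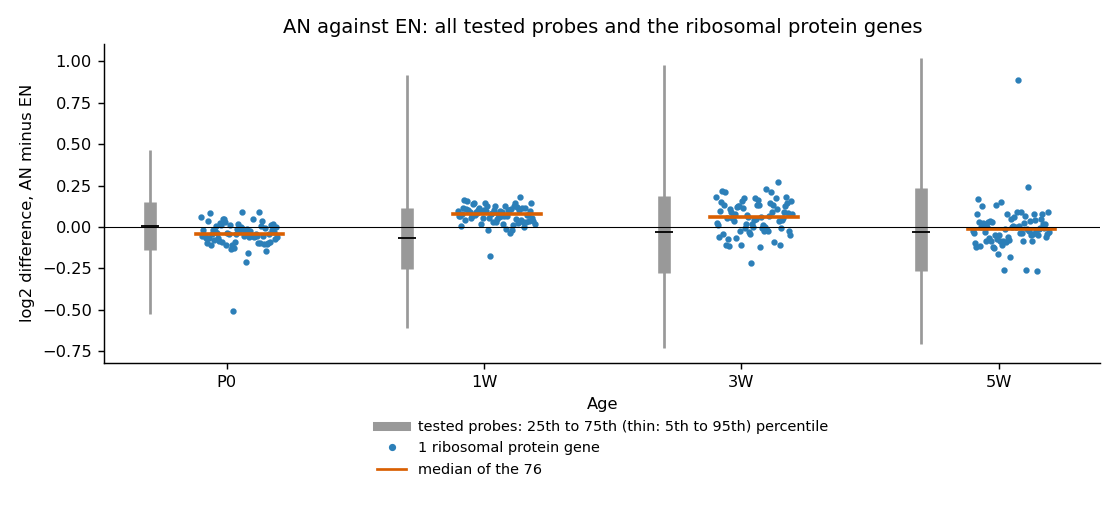
log2 difference AN minus EN for each of the 76 ribosomal protein genes (blue points, spread sideways for sight only) at the 4 ages, with their median (orange) and, in grey, the 25th to 75th and 5th to 95th percentiles of all tested probes. The genes lie close to 0, with medians of -0.04, 0.08, 0.06 and -0.01, in a band narrower than that of the tested probes, and Rplp1 at 5W (0.88) stands apart.

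At P0 all 3 AN arrays lay below all 3 EN arrays for 11 genes (6.48% of tested probes). At 1W all 3 AN arrays lay above for 15 genes (12%), and at 3W for 12 genes (12.8%). The largest differences at P0 were those of Rpl37 (-0.51), Rplp1 (-0.21) and Rps10 (-0.16) in 1 direction and Rpl7a (0.09), Rps2 (0.09) and Rpl18 (0.09) in the other. At 1W they were Rpl37 (-0.18), Rps15 (-0.04) and Rpl36 (-0.02) against Rps24 (0.18), Rpl14 (0.16) and Rpl18 (0.16). None of these passed the test.

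At 3W Rps24, another Diamond-Blackfan anaemia gene, had the largest positive difference. It read 17.53, 17.74 and 17.52 in AN and 17.36, 17.32 and 17.29 in EN, so that the arrays did not overlap, with a difference of 0.27 (SE 0.12, limma adjusted p = 0.231). Rps14 (0.23) and Rpl14 (0.22) came next, and Rpl4 (-0.21), Rplp1 (-0.12) and Rpl22 (-0.11) lay at the other end. AN and EN arrays of the same replicate number deviated together from their group means, and with age and replicate number as a block Rps24 (limma adjusted p = 0.0307), Rps14 (0.23, limma adjusted p = 0.0327) and Rpl18 (0.21, limma adjusted p = 0.0401) were higher in AN at 3W. Under the 75th percentile scaling the values of Rps24 and Rps14 were -0.03 and that of Rpl14 was -0.01.

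At 5W Rps26, which lies at the mRNA exit channel, read 15.54, 15.46 and 15.81 in AN and 15.79, 15.70 and 16.11 in EN, a difference of -0.26 (SE 0.12, limma adjusted p = 0.223). Rps15a differed by -0.26 (SE 0.11, limma adjusted p = 0.189). The arrays of Rps26 overlap between the fibres while each AN array lies below the EN array of its number, and with age and replicate number as a block both genes were lower in AN, with limma adjusted p of 0.0244 for Rps26 and 0.0276 for Rps15a. Rpl37 differed by -0.26, and Rpl13a (0.17) and Rplp1 (0.88) lay towards the other end. The value of Rplp1 was -0.39 without 5W EN replicate 3.

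Other genes of protein synthesis were followed through lists whose choice was made with earlier results of these data known, so that their counts are descriptions. All the differences that follow are 5W minus P0, where 26.0% of tested probes were lower and 28.2% higher in EN, and 24.2% were lower and 26.4% higher in AN. Of the ribosomal proteins with other names, Fau and Gnb2l1 (the scaffold protein Rack1) were lower at 5W than at P0, with differences of -0.39 and -0.98 in EN and -0.30 and -0.86 in AN. Of 6 tested paralogs of ribosomal proteins, 5 were lower in each fibre. They were Rpl36al (-1.08 in EN and -0.97 in AN), Rps27l (-0.79 and -0.91), Rpl22l1 (-0.66 and -0.79), Rsl24d1 (-0.63 and -0.64) and Rpl7l1 (-0.48 and -0.62), while the muscle form Rpl3l was not called (limma adjusted p = 0.273 and 0.947).

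Of 13 other translation genes (elongation factors, the poly(A) binding protein, nascent chain factors and some initiation factors), 9 were lower and 1 higher in EN (median -0.52) and 8 lower and 1 higher in AN (-0.46). Btf3, part of the nascent chain complex, led with -1.06 and -0.96. Of 21 further initiation factors, 16 were lower and 2 higher in EN (-0.51) and 14 lower and 2 higher in AN (-0.46). The helicase Eif4a1 differed by -1.31 in both fibres, and Eif1, which guards the choice of start codon, rose by 1.01 in EN and 1.33 in AN. Of 43 factors of ribosome biogenesis, 32 were lower and 3 higher in EN (-0.73) and 30 lower and 1 higher in AN (-0.77), with Nop58, a core protein of small nucleolar RNA particles, at -1.92 in both.

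Of 18 growth regulators of the mTOR and Myc pathways, 6 were lower and 6 higher in EN (-0.11) and 4 lower and 6 higher in AN (-0.08). Myc, which drives transcription of ribosome genes, fell by 1.40 in EN and 1.71 in AN, and Mycn by 1.54 and 1.55, while the Myc antagonist Mxd4 rose by 1.09 and 1.23. Of 77 mitochondrial ribosomal protein genes, 38 were lower and 9 higher in EN (-0.35) and 45 lower and 6 higher in AN (-0.40). Among them Mrps2 was at -1.09 and -1.04 and Mrps6 at 1.28 and 1.31. Of 38 proteasome subunits, 23 were lower and 6 higher in EN (-0.42) and 22 lower and 4 higher in AN (-0.42), and the immunoproteasome subunits Psmb8 and Psmb9 rose by 2.34 each in EN and by 2.02 and 1.80 in AN.

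Markers of cell types and of division moved with age beside the ribosomal protein genes. All 10 markers of dividing cells were lower at 5W in both fibres (medians -3.72 in EN and -4.36 in AN), and the log2 of their summed level ran from 15.78 to 16.62 at P0 and from 13.48 to 13.74 at 5W. Of the 10 Schwann cell markers, 8 were higher and 1 lower in EN and 9 higher and 1 lower in AN, and their sum went from a range of 19.05 to 19.65 at P0 to one of 20.29 to 20.41 at 5W. Of 10 neuronal markers, 8 were lower in EN (median -2.69) and 5 in AN (-1.90), and their summed level in 3W AN ran from 14.86 to 19.60. Macrophage markers were higher for 4 of 6 in EN and 3 of 6 in AN. Fibroblast markers were split (2 higher and 2 lower of 8 in EN, 2 higher and 5 lower in AN), as were endothelial (1 higher and 1 lower of 6 in EN, 3 lower in AN) and oligodendrocyte markers (1 higher and 2 lower of 7 in EN, 4 higher in AN), and 0 of 5 erythroid markers were called by limma. The part of these cells in the fall of the ribosomal protein genes was not tested.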

How the data were processed

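Total RNA of 24 samples was hybridised to Agilent mouse arrays with 60-base probes and a single dye. The authors scanned them with Agilent Feature Extraction 10.7.1.1 and deposited the spot intensity values of each array together with a table of log2 values that, per the study's methods, was quantile normalized in GeneSpring. The log2 table as deposited gave the main values, since limma on quantile normalized values is the method the study names. The scanner intensity values, as deposited, gave the background calls, the share of array signal and the alternative scalings.

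A probe was tested if some group had it well above background on each of its 3 arrays, and each gene was represented by its tested probe of highest mean. A single model with a mean for each of the 8 groups (16 residual degrees of freedom) was fitted in limma 3.58.1, run under R 4.3.3, with Benjamini-Hochberg adjustment over 36409 probes and a threshold of 0.05. Quantile normalization gives every array the same distribution, so a change shared by most probes cannot appear. No array was left without a group and no sample column was left unused. Tables and figures were made with Python 3.11.15. The fit was also run on simulated data with independent noise on each array. Those data held no slide effect and no pairing, so that run cannot test how the fit deals with either.

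AN and EN arrays of the same age and replicate number were treated as pairs only in the fits with replicate number as a block, not in the main fit. Over all tested probes, their deviations from the group means correlated above 0.1 for all 12 pairs (0.107 to 0.646). The 24 pairs with other numbers ran from -0.467 to 0.116, but deviations from a mean of 3 arrays push such values below 0. Arrays of the same number also shared a slide. At 3W, with all arrays on slide 4, same-number pairs had 0.184, 0.107 and 0.214. On slide 3, P0 replicates 2 and 3 had 0.435 and 0.432, against -0.040 and -0.217 across numbers. The pairing is not stated by the labels.

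Alternatives were quantile normalized scanner signal, scaling to the 75th percentile, normexp background correction (offset 50), no or a strict filter on dim probes, the mean of all probes of a gene, 1 probe per gene name, slide or replicate number as a block, array weights, only the arrays compared, and each array left out. After seeing the data, leaving out both 5W arrays of slide 4 and differences within slides were added.

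The genes and lists were chosen with earlier results of these data known. Named genes were a set chosen by role, the 3 members at either end of each AN minus EN comparison and of 5W minus P0, of mean level and of likeness to the median course, ribosomal proteins with other names or paralogs, and up to 3 genes of other lists. Members with probes called in opposite directions were named too. The values of some single genes are not reported here. Start sites came from RefSeq tables of GRCm38.p6, and probe chromosomes from the array's annotation on mm9.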

Additional observations from a re-analysis of the deposited data

How the results depend on the processing

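The direction of the median of the 76 genes at 5W against P0 was below 0 in both fibres under every alternative run, and the counts of called genes stayed within 1.5 times of those given except as follows. Counts of called genes are given first. For slide as a block and array weights, the share of tested probes called in either direction stands in brackets. Counts without a share describe the members alone. For these, fewer or more calls over all tested probes cannot be told apart from a change in the members.

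Scaling to the 75th percentile called 9 genes for 1W minus P0 in EN, 25 for 3W minus P0 in EN, 8 for 3W minus 1W in EN and 0 for 1W minus P0 in AN. With slide as a block the counts were 51 for 1W minus P0 in EN (34.5%) and 7 for 1W minus P0 in AN (28.7%). They were 55 for 3W minus P0 in AN (39.7%), and 30 and 37 for 3W minus 1W in EN and AN (18.3% and 23.7%). The count was 1 each for 5W minus 3W in EN and AN (5.35% and 4.38%) and for AN minus EN at 3W and 5W (13.4% and 14.7%). Array weights gave 48 for 1W minus P0 in EN (39.5%), 9 for 1W minus P0 in AN (31.7%) and 27 for 3W minus 1W in EN (51.0%). They gave 2 and 16 for 5W minus 3W in EN and AN (8.98% and 11.6%), and 4 for AN minus EN at 3W (20.9%). Fitting only the arrays compared gave 3 and 0 for 1W minus P0 in EN and AN, 18 for 3W minus P0 in AN, 39 and 25 for 5W minus P0 in EN and AN, and 7 for 3W minus 1W in AN.

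For 1W minus P0 in AN, quantile normalized scanner signal, no filter and leaving out both 5W arrays of slide 4 gave 1 each, the strict filter 4 and the mean of all probes 7. For 5W minus 3W, normexp gave 1 in both fibres, the mean of all probes 1 in EN, and the strict filter and 1 probe per gene 1 each in AN. Leaving out both 5W arrays of slide 4 gave 4 in EN and 23 in AN, where age and slide cannot be told apart. With all probes of the genes, their share of array signal at 5W minus P0 was -3.02 percentage points in EN and -2.72 in AN.

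The pairing mattered little for ages. With the replicate block, 4 genes were called for 1W minus P0 in AN and 1 for 5W minus 3W in AN. With age and replicate number as a block, 3 genes were called for AN minus EN at 3W (21.1% of tested probes) and 2 at 5W (23.5%). No other count moved by over 1.5 times.

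Leaving out single arrays gave 6 to 34 genes for 1W minus P0 in EN, 1 to 3 in AN, 7 to 15 for 3W minus 1W in EN, 12 to 22 in AN, 0 to 1 for 5W minus 3W in EN and 0 to 12 in AN. It gave 39 to 51 for 3W minus P0 in EN, 27 to 38 in AN, and 50 to 64 and 46 to 61 for 5W minus P0. The share of array signal at 5W minus P0 then ran from -2.05 to -1.72 points in EN and from -1.89 to -1.45 in AN.

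Signs that turned belonged to small differences or to genes whose probes disagree. For 5W minus P0, the mean of all probes gave 0.85 in AN and 0.18 in EN for Rpl11 and -0.014 in EN for Rpl3, and normexp gave 0.0080 in AN for Rpl3. Slide as a block gave -0.19 for Rpl37 in EN, 0.18 for Rplp1 in AN, -0.082 for Rps21 in EN, -0.13 for Rps21 in AN and -0.17 for Rps29 in AN. Rps21 in AN was -0.029 with the 75th percentile, -0.057 with weights and -0.11 without both slide 4 arrays of 5W, which gave -0.077 in EN, and Rps29 in AN was -0.050 with weights and -0.16 without those arrays. For AN minus EN, the 75th percentile gave -0.031 for Rpl13a at 5W, -0.014 for Rpl14, -0.033 for Rps14 and -0.035 for Rps24 at 3W, and -0.080 for Rpl18, -0.073 for Rpl7a and -0.085 for Rps2 at P0, weights gave 0.0028 for Rpl36 at 1W, and leaving out both slide 4 arrays gave -0.095 for Rplp1 at 5W. With single arrays left out, 5W minus P0 ran from -0.039 to 0.0024 for Rpl3 in AN, from -0.11 to 0.16 for Rps21 in AN, from -0.077 to 0.23 for Rps21 in EN and from -0.16 to 0.17 for Rps29 in AN. AN minus EN then ran from -0.19 to 0.022 for Rpl22 at 3W, from -0.061 to 0.039 for Rpl36, from -0.81 to 0.21 for Rpl37 and from -0.11 to 0.014 for Rps15 at 1W, and from -0.39 to 1.54 for Rplp1 at 5W.

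Of the called differences of named genes at 5W against P0, 16 were lost with the 75th percentile, 19 when only the arrays compared were fitted, 5 with the mean of all probes, 1 without the filter and 1 with slide as a block. The 19 included Rpl22, Rpl41, Rplp2, Rps27a and Rpsa in both fibres. They also included Rplp1 in EN, and Rpl5, Rpl10, Rpl11, Rpl39, Rplp0, Rps3, Rps14 and Rps19 in AN. The causes were not tested.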

Other observations

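Some limits apply to every value given. Each group has 3 arrays and no source ties them to animals. The probes of ribosomal protein genes are near the top of the signal range, where a fold change on an array can be compressed, and this was not tested. Processed copies of these genes share most of their sequence, and signal from them was not tested. All arrays of 3W share a slide that holds no array of P0 or 1W, so that the steps to and from 3W cannot be told apart from the slide except through the 5W arrays. An annotated start site is not a measured start of transcription.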
